A study of Homo sapiens with 6 samples.

Results

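Prostanoids are short-range lipid signals made from arachidonic acid, and this account follows 10 genes that receive, move or remove them. The genes were taken by symbol from the 58735 genes of the deposited table. A group of 6 encode receptors (PTGER1, PTGER2, PTGER3, PTGER4, PTGFR and PTGIR). SLCO2A1 encodes a transporter, HPGD and PTGR1 encode enzymes of breakdown, and PTGIS encodes prostacyclin synthase, which is an enzyme of synthesis rather than of breakdown. MG63, an established human osteosarcoma line, was transfected with siRNA against FUBP1 (siFUBP1, 3 samples) or with a negative control siRNA (siMock, 3 samples), and polyadenylated RNA was sequenced 48 h later. A single line was used, and the sources used here do not say which of the FUBP1 siRNAs was sequenced or whether the samples came from separate cultures, so p-values measure only the spread between these samples, which may be technical. The study asked which genes FUBP1 acts on in lobaplatin resistance, and it followed prostaglandin E synthase (PTGES) from there. The comparison here asked whether the genes that sense and clear the product of that enzyme differed too.

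Prostaglandin E2 (PGE2) acts on 4 receptors at the cell surface. EP2 and EP4, encoded by PTGER2 and PTGER4, couple to the stimulatory G protein and raise cyclic AMP. EP3, from PTGER3, mainly lowers cyclic AMP, and EP1, from PTGER1, raises calcium inside the cell. PTGFR and PTGIR encode the receptors for prostaglandin F2 alpha and prostacyclin. The signal ends when SLCO2A1 takes prostaglandins up, HPGD oxidises them and reductases such as PTGR1 act on the oxidised product.

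Total counts lay between 16309900 and 17484313 reads per sample. FUBP1, the targeted gene, had 3872, 4331 and 4282 reads in the siMock samples and 749, 752 and 926 in the siFUBP1 samples, which left 18.4% of the siMock level. On the log2 scale the difference was -2.44 with a standard error of 0.0895 (edgeR adjusted p = 1.90e-17, quasi-likelihood test, Benjamini-Hochberg). With the same test, 16116 genes passed the filter on low counts, of which 30.1% were called higher and 30.1% lower at an adjusted p below 0.05, with a median log2 fold change of 0.00197. Every count of called genes below stands against this background. The labelled cell type was checked against 9 genes of the osteoblast lineage. COL1A2 and IBSP had 0 reads in all 6 samples, ALPL had 2 reads, SP7 7 and SPARC 12 over the 6 samples together, and RUNX2 had 6 to 8 reads per sample in siMock and 39 to 97 in siFUBP1. BGLAP and SPP1 each had 1 to 4 reads in a siMock sample, against 7 to 22 after knockdown. COL1A1 was present, with 1692 to 2000 reads in siMock. The keratins KRT8 and KRT18, which mark epithelial cells, had 28650 to 34970 and 10755 to 12282 reads in siMock. The other epithelial genes checked were low in siMock: EPCAM had 59 to 70 reads per sample, CDH1 10 to 22 and KRT19 1 to 3. Most of the defining osteoblast markers were thus at or near 0 in siMock samples that carry this label. The summed level of the 9 osteoblast genes was 109 to 118 CPM (counts scaled to the library size) in siMock and 49.6 to 52.4 CPM in siFUBP1. COL1A1 made up most of this sum, with means of 113 CPM in siMock and 45.4 CPM in siFUBP1. RUNX2, BGLAP and SPP1 went the other way, each higher in siFUBP1 with no overlap. The sum of 5 epithelial genes was 2520 to 2900 CPM in siMock and 1360 to 1490 CPM in siFUBP1. The sums of 3 endothelial and 3 haematopoietic genes stayed below those, at 1.89 to 5.17 CPM and 0.229 to 0.999 CPM over both groups. The part of these markers in the results below was not tested.

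Most of the 6 receptor genes on the list were barely transcribed in these cells. The one of them with a clear count, PTGER4, was higher after FUBP1 knockdown. Of the 10 genes, 3 passed the filter on low counts (PTGER4, SLCO2A1 and PTGR1) and 7 did not. PTGER4 rose, and SLCO2A1 and PTGR1 did not pass the test. PTGER1 was too low for the filter, with its reads concentrated in siFUBP1. The other 6 genes had 0 to 6 reads each over all samples.

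**Figure D1:**
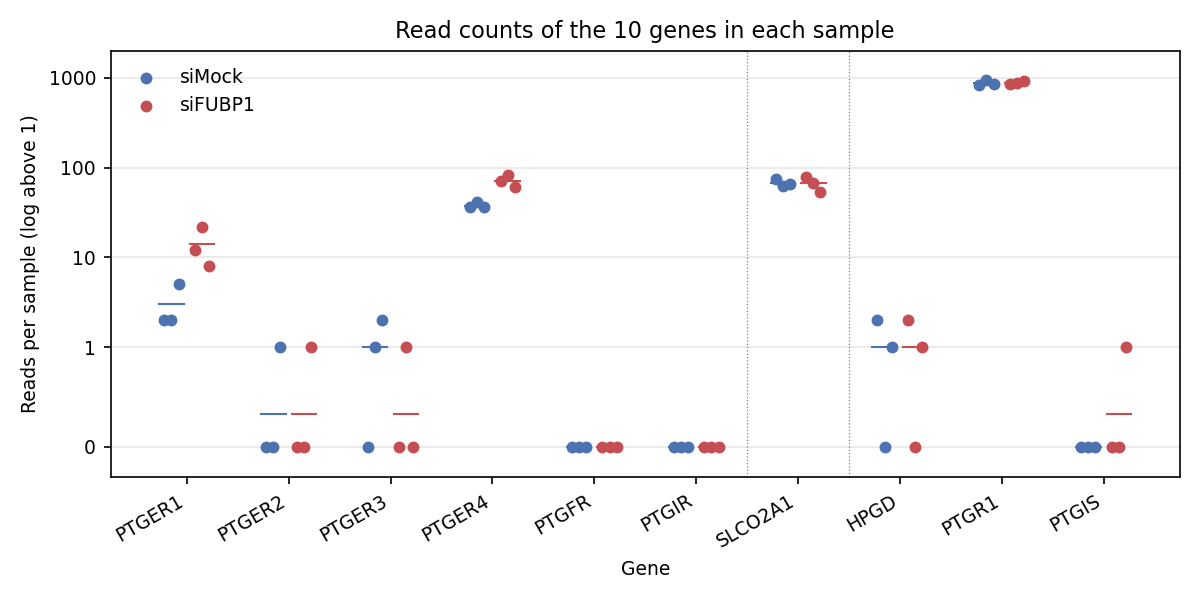
Reads per sample (log axis above 1, linear below) for the 10 genes, with receptors left of the first dotted line, the transporter between the lines and the enzymes to the right. Blue points are the 3 siMock samples, red points the 3 siFUBP1 samples and short lines the group means. PTGR1 had 838 to 947 reads per sample, PTGER4 and PTGER1 lie higher in siFUBP1 with no overlap, and PTGFR and PTGIR lie at 0 throughout.

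PTGER4 (ENSG00000171522, chromosome 5 of GRCh38, 40679498 to 40693735, plus strand) had 36, 41 and 36 reads in the siMock samples and 71, 82 and 61 in the siFUBP1 samples. Each siFUBP1 sample lay above each siMock sample, as it did for 32.2% of the genes tested. The normalised level was 2.30 ± 0.103 CPM in siMock against 4.13 ± 0.618 CPM in siFUBP1 (SD, n = 3 each). On the log2 scale PTGER4 was higher by 0.84 (SE 0.226, 95% interval 0.38 to 1.31, edgeR adjusted p = 0.00228), or 1.79-fold. PTGER4 was the 1 gene called among the 3 tested. None of the 3 passed a 2-fold threshold, which 8.16% of all tested genes passed upwards and 9.13% downwards. Fewer cells of a type and less RNA per cell cannot be told apart in bulk samples such as these. On the log2(FPKM + 1) scale, which understates the change of low genes, limma gave 0.37 (adjusted p = 0.00464). PTGER4 lies within the body of TTC33, which runs on the opposite strand, and shares no exonic base with it. TTC33 had 515 to 556 reads in siMock and 574 to 720 in siFUBP1, with a log2 fold change of 0.20 (edgeR adjusted p = 0.0768). PTGER4 reads made up 6.47% to 7.79% of the TTC33 reads in siMock and 8.47% to 12.6% in siFUBP1. Reads counted for TTC33 do not measure its transcription across PTGER4, and the use of the strand is not given. Whether that transcription adds to the PTGER4 counts was not tested.

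PTGER1 (ENSG00000160951, chromosome 19, 14472466 to 14475362, minus strand) had 2, 2 and 5 reads in siMock and 12, 22 and 8 in siFUBP1, or 9 against 42 reads in all. The highest siMock sample lay below the lowest siFUBP1 sample, which also held for 15.3% of the 4810 genes with 20 to 100 reads over the 6 samples. Its level was 0.186 ± 0.115 CPM (SD, n = 3) against 0.811 ± 0.414 CPM (SD, n = 3), a ratio of 4.35, and siFUBP1 replicate 2 held 22 of the 42 reads. The exact permutation test of 3 samples against 3 gave a two-sided p of 0.10, the smallest it can give. When the filter was left out, edgeR gave a log2 fold change of 2.11 (95% interval 0.88 to 3.34, adjusted p = 0.00341), where 15.9% of the 31703 genes were called higher. DESeq2, with its own filter on low means, gave 2.14 (adjusted p = 0.0283), with 20.1% of its genes called higher. PTGER1 also passed the filter when any siMock sample or siFUBP1 replicate 3 was left out, and edgeR then gave 1.85 to 2.68 with adjusted p from 0.00194 to 0.0225. Without siFUBP1 replicate 1 or siFUBP1 replicate 2 it did not pass the filter. A gene this low can reach the filter only through the group in which it is high.

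PTGER4 and PTGER1 are shown with their promoters, since they are the members whose samples separated by group. The sequences are from RefSeq on GRCh38.p14, from 250 bases before the start to 50 after it, read along the gene. RefSeq windows were matched for 6 of the 10 genes. The PTGER4 gene of the deposited table starts upstream of its window. Capitals mark GC boxes (GGGCGG or its reverse complement CCGCCC) and CCAAT boxes (CCAAT or ATTGG). The PTGER4 window is chr5:40679665-40679964 on the plus strand and the PTGER1 window is chr19:14475305-14475604 on the minus strand.
PTGER4: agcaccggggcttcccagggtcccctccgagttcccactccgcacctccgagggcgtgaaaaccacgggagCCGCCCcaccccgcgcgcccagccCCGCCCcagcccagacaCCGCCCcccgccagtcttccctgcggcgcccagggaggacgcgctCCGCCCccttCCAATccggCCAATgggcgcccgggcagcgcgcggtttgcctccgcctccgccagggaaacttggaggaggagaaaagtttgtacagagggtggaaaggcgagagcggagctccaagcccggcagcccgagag
PTGER1: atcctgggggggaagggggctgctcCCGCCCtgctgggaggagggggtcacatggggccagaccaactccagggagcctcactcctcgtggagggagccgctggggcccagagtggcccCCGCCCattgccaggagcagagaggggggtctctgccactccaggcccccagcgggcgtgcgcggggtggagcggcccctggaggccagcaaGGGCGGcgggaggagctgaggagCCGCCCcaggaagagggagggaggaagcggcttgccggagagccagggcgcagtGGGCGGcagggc
Both windows are rich in G and C, at 72% for PTGER4 and 74.3% for PTGER1, against a median of 58.7% over 35116 promoter windows of this length. The PTGER4 window holds 30 CpG pairs and the PTGER1 window 16, with a median of 14 over all windows. A GC box occurred 4 times for PTGER4 and 5 times for PTGER1, and 45.0% of all windows hold at least 1. CCAAT occurred 2 times for PTGER4 and 0 times for PTGER1, and 34.6% of all windows hold it. Neither window holds the cyclic AMP response element TGACGTCA (1.85% of all windows), its core TGACG or CGTCA (24.6%) or a TATA box, TATAAA or TTTATA (11.5%). These matches describe letters in the windows only.

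The other PGE2 receptors were close to undetected. The study reported that an agonist of EP2 weakened the effect of lobaplatin in osteosarcoma cells with FUBP1 silenced. PTGER2, the gene of EP2 (chromosome 14, 52314305 to 52328606), had 0, 0 and 1 reads in siMock and 0, 0 and 1 in siFUBP1. These are RNA counts, and receptor protein was not measured here. PTGER3 (chromosome 1, 70852353 to 71047808) had 0, 1 and 2 reads in siMock and 0, 1 and 0 in siFUBP1. The 2 reads of PTGER2 over the 6 samples carry an exact Poisson interval of 0.242 to 7.22 reads (95%), and the 4 reads of PTGER3 one of 1.09 to 10.2 reads, both covering counting error only. A difference between the groups was not detectable for either gene at this depth (exact permutation test, two-sided p = 1.0 for PTGER2 and 0.40 for PTGER3, n = 3 in each group).

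The make-up of the 4 PGE2 receptor genes was compared per length with the deposited FPKM values (reads scaled by gene length and by library size). Their sum was 0.721 ± 0.103 FPKM (SD, n = 3) in siMock and 1.62 ± 0.439 FPKM (SD, n = 3) in siFUBP1. It was 0.636, 0.692 and 0.835 FPKM in the siMock samples and 1.55, 2.09 and 1.22 FPKM in the siFUBP1 samples. PTGER4 and PTGER1 made up nearly all of this sum, and each already separated the groups. That the sum separated them too adds nothing further. PTGER4 supplied 68.8% to 87.3% of this sum in siMock and 57.0% to 71.8% in siFUBP1, ranges that overlap. PTGER1 supplied most of what remained, with 11.9% to 26.6% in siMock and 26.3% to 42.7% in siFUBP1.

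**Figure D2:**
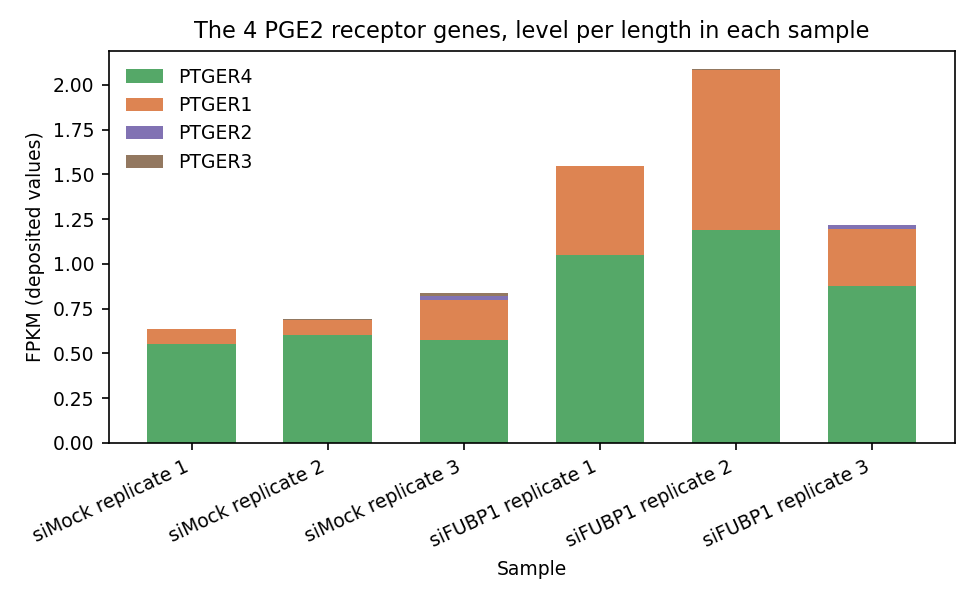
Level per length (FPKM, deposited values) of the 4 PGE2 receptor genes in each sample, stacked, with the 3 siMock samples on the left and the 3 siFUBP1 samples on the right. The stacks of siMock end between 0.636 and 0.835 FPKM and those of siFUBP1 between 1.22 and 2.09 FPKM, and nearly all of each stack is PTGER4 and PTGER1.

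No reads were counted for the receptors of other prostanoids on the list. PTGFR (chromosome 1, 78303884 to 78539749) and PTGIR (chromosome 19, 46620468 to 46625118) had 0 reads in every sample. A count of 0 allows up to 3 reads, or 0.192 CPM in the shallowest sample and 0.0298 CPM over the 6 samples together. PTGIS (chromosome 20, 49503874 to 49568146), which makes the ligand of the PTGIR receptor, had 1 read, in siFUBP1 replicate 3.

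SLCO2A1 (ENSG00000174640, chromosome 3, 133928145 to 134052184, minus strand) encodes the prostaglandin transporter, which carries PGE2 into cells. It had 74, 63 and 66 reads in siMock and 79, 68 and 54 in siFUBP1, and the groups overlapped on both sides. The level was 4.15 ± 0.417 CPM in siMock against 3.89 ± 0.791 CPM in siFUBP1 (SD, n = 3 each). The difference on the log2 scale was -0.093 (SE 0.208, edgeR adjusted p = 0.721), and its 95% interval of -0.52 to 0.33 leaves room for 0.697 to 1.26 times the siMock level. Its sign turned without siFUBP1 replicate 3, at 0.050, and once a trend of GC content and length was removed, at 0.055.

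Breakdown begins with HPGD (chromosome 4, 174490177 to 174523154), the 15-hydroxyprostaglandin dehydrogenase that inactivates PGE2. HPGD had 2, 0 and 1 reads in siMock and 2, 0 and 1 in siFUBP1, the same total of 3 in each group (exact permutation test, two-sided p = 0.80, n = 3 in each group). Its 6 reads in all carry an exact Poisson interval of 2.20 to 13.1 reads, which is at most 0.13 CPM, so a difference was not detectable at this depth.

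PTGR1 (ENSG00000106853, chromosome 9, 111549722 to 111599893, minus strand) encodes a reductase that acts after HPGD on 15-keto prostaglandins and also converts leukotriene B4. It was the most abundant of the 10 genes, with 838, 947 and 854 reads in siMock and 861, 867 and 926 in siFUBP1. The normalised level was 53.8 ± 2.28 CPM in siMock against 51.2 ± 1.55 CPM in siFUBP1 (SD, n = 3 each), with overlapping samples. The difference on the log2 scale was -0.0709 (SE 0.0834, 95% interval -0.24 to 0.10, edgeR adjusted p = 0.482), or 0.845 to 1.07 times the siMock level. Removing a trend of GC content and length changed the call: PTGR1, whose transcript holds 42.8% G and C, was at -0.26 (edgeR adjusted p = 0.00275), where 30.1% of genes were called lower. Apart from that setting, 0 of the 10 genes were called lower by edgeR, by DESeq2 or at an unadjusted p under 0.05. Only 3 of the 10 passed the edgeR filter, and 30.1% of all genes that passed it were called lower.

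Per length, the order of the 10 genes by their mean over both groups was PTGR1 at a mean of 13.9 FPKM, PTGER4 at 0.808, SLCO2A1 at 0.406, PTGER1 at 0.349, HPGD at 0.0108, PTGER2 at 0.00808, PTGER3 at 0.00418, PTGIS at 0.0017, and PTGFR and PTGIR at 0. PTGR1 lay above PTGER4, and PTGER4 above SLCO2A1, in 6 of 6 samples. The order of SLCO2A1 and PTGER1 turned between the groups. In siMock, SLCO2A1 at 0.374 to 0.456 FPKM lay above PTGER1 at 0.0821 to 0.222 FPKM with no overlap. In siFUBP1, PTGER1 at 0.320 to 0.890 FPKM lay above SLCO2A1 at 0.312 to 0.472 FPKM in each of the 3 samples, though the ranges overlap. The values were close in replicate 1 (0.496 against 0.472 FPKM) and replicate 3 (0.320 against 0.312 FPKM), with only 12 and 8 PTGER1 reads. The turn restates the PTGER1 counts given above and adds nothing further. The genes from HPGD downwards, at 0 to 6 reads each, did not differ beyond their spread. In siMock, PTGR1 stood above 78.2% of the tested genes in FPKM, PTGER4 above 13.1% and SLCO2A1 above 9.74%.

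The siRNAs designed against FUBP1 are shown because the bases 2 to 8 of a guide, its seed, can act on other mRNAs. The guides, written 5′ to 3′ with the seed in capitals, were searched against the 3-prime UTR of the transcript with the longest coding sequence of each gene.
RNAi#1: uAAACUGAaugcgaacacctt
RNAi#2: uAAGAGGUuugucagcacctt
RNAi#3: uUUCUUCUaugaguugccgtt
PTGER4, PTGER1 and PTGR1 held 0 matches to any of the 3 seeds, in UTRs of 1357, 94 and 154 bases. SLCO2A1, with a UTR of 6568 bases, held 1 match to RNAi#2 and 3 to RNAi#3, of which the first of each is shown with the match in capitals.
SLCO2A1 and RNAi#2: ccttccctACCTCTTcctcccag
SLCO2A1 and RNAi#3: gggttttgAGAAGAAaaggccct
PTGER2 held 1 match to RNAi#1 and PTGFR 1 to RNAi#3, and PTGER3, PTGIR, HPGD and PTGIS held 0 matches. Of the 12622 tested genes with such a UTR, 19.8% held a match to RNAi#1, 12.2% to RNAi#2 and 19.4% to RNAi#3.

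The genes that make prostanoids are given as context. PTGES fell to 15.5% of its siMock level and PTGS1, the constitutive cyclooxygenase, to 46.3%. PTGS2, the inducible cyclooxygenase, rose from 254 to 412 reads per siMock sample to 545 to 710 per siFUBP1 sample, a log2 difference of 0.87. On the synthesis list 11 of 12 genes were tested, of which 7 fell and 3 rose, with a median log2 fold change of -0.57. PRXL2B, a prostaglandin F synthase, and PTGDS, a prostaglandin D synthase, fell by 1.77 and 1.72 on the log2 scale (edgeR adjusted p = 1.64e-12 and 3.17e-10). TBXAS1, thromboxane synthase, rose by 1.12 (edgeR adjusted p = 0.0354) from 5 to 9 reads to 11 to 20 reads. It was not called without siMock replicate 1, siMock replicate 2, siFUBP1 replicate 2 or siFUBP1 replicate 3 (edgeR adjusted p from 0.0657 to 0.146). Nor was it called by DESeq2 (adjusted p = 0.152) or by edgeR without a filter on low counts (adjusted p = 0.0663). On log2(FPKM + 1) and log2(FPKM + 0.1), limma did not call it either (adjusted p = 0.0988 and 0.0542).

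**Figure D3:**
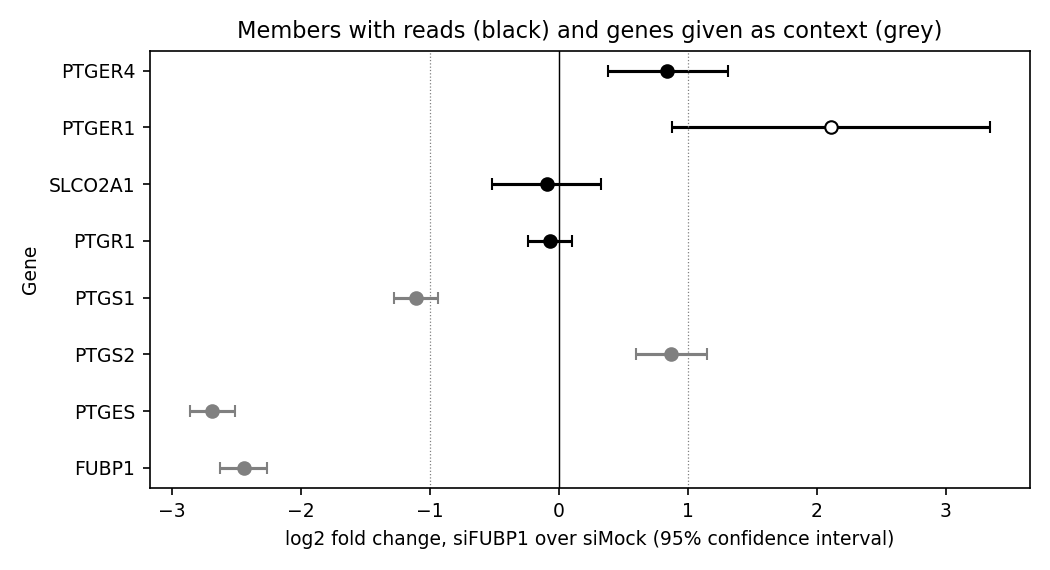
Log2 fold change of siFUBP1 over siMock with its 95% confidence interval for 4 of the 10 genes (black) and for the context genes (grey), with dotted lines at -1 and 1. The open circle of PTGER1 comes from the fit without a filter on low counts, the others from the fit with it, and the intervals of SLCO2A1 and PTGR1 include 0 while that of PTGER4 runs from 0.38 to 1.31.

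Lists of other pathway genes, none of them members, were described in the same way. Among the other receptors, PTGDR had 0 reads and PTGDR2 had 0 to 4 per sample. TBXA2R, the thromboxane receptor, had 176 to 291 reads per sample, more than PTGER4. It was at a log2 fold change of -0.10 (edgeR adjusted p = 0.547). PTGFRN, a membrane protein that binds the PTGFR receptor and dampens its ligand binding, rose from 159 ± 6.13 to 231 ± 14.0 CPM (SD, n = 3 each), a log2 difference of 0.54 (edgeR adjusted p = 1.09e-06), in cells where PTGFR itself had 0 reads.

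Among other carriers of prostanoids 4 of 7 genes were tested, of which 3 fell and 0 rose (0 also at an unadjusted p under 0.05 by edgeR and by DESeq2). SLCO4A1 fell from 331 ± 18.5 to 235 ± 13.9 CPM and SLCO3A1 from 135 ± 8.62 to 81.5 ± 3.99 CPM (SD, n = 3 each), log2 differences of -0.50 and -0.73 (edgeR adjusted p = 4.89e-06 and 1.22e-08). SLCO2B1 fell by 1.71 on the log2 scale (edgeR adjusted p = 0.00372) with only 4 to 40 reads per sample. Without siFUBP1 replicate 3, which had 18 reads, it fell by 2.68, and by limma on log2(FPKM + 1) it was not called, at -0.15 (adjusted p = 0.0675). ABCC4, which exports PGE2, was at -0.17 (edgeR adjusted p = 0.0570). Whether these changes differ from that of SLCO2A1 was not tested.

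Other reducing enzymes split evenly, with 3 of 6 higher and 3 lower. PTGR2 and ZADH2, which share with PTGR1 the reduction of 15-keto prostaglandins, rose by 1.06 and 0.44 on the log2 scale (edgeR adjusted p = 0.00247 and 1.76e-04), and CBR1 rose by 0.26. PTGR2 was low, with 23, 43 and 21 reads in siMock and 40, 78 and 74 in siFUBP1, and its groups overlapped. CBR3 fell by 1.06 (edgeR adjusted p = 6.44e-04), and AKR1C1 and AKR1C2 fell by 0.39 and 0.65. AKR1C1, AKR1C2 and AKR1C3 are near-identical copies that can share reads, so their values are uncertain.

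Downstream of the receptors, 27 of 35 genes of G proteins and cyclic AMP signalling were tested, of which 18 fell and 6 rose, with a median log2 fold change of -0.41. GNAS, the stimulatory G protein through which the PTGER4 receptor acts, fell by 0.40 on the log2 scale (edgeR adjusted p = 2.87e-04). Adenylyl cyclases make cyclic AMP, and 5 of the 6 tested fell. ADCY6 went from 185 ± 4.76 to 89.2 ± 2.61 CPM and ADCY3 from 98.5 ± 9.70 to 36.1 ± 1.19 CPM (SD, n = 3 each), log2 differences of -1.05 and -1.45 (edgeR adjusted p = 5.08e-12 and 2.02e-13). PRKAR2A, a regulatory subunit of protein kinase A, fell by 1.66 (edgeR adjusted p = 8.05e-15). Once the trend of GC content and length was removed, ADCY6 was at -0.81, ADCY3 at -1.23 and PRKAR2A at -1.63, all still called lower by edgeR. The counts of this list were not taken with that trend removed. The genes that rose were GNAQ, GNAI1, GNAI2, GNA13, PRKACB and PRKAR1A, named after their values were seen, with log2 fold changes from 0.30 to 0.80. GNAQ and GNA11 encode the G proteins that raise calcium, and they went in opposite directions, at 0.77 and -0.31.

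Of 14 genes known to respond to cyclic AMP, 9 rose and 5 fell, with a median log2 fold change of 0.31. AREG, an EGF receptor ligand, rose from 3.48 ± 1.28 to 35.8 ± 8.06 CPM (SD, n = 3 each), a log2 difference of 3.37 (edgeR adjusted p = 1.48e-06). FOSB and VEGFA rose by 1.3 and 1.21, while SIK1 fell by 1.52 (edgeR adjusted p = 0.00101). SIK1 has a near-identical copy in the genome, and its value is uncertain to that extent.

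**Figure D4:**
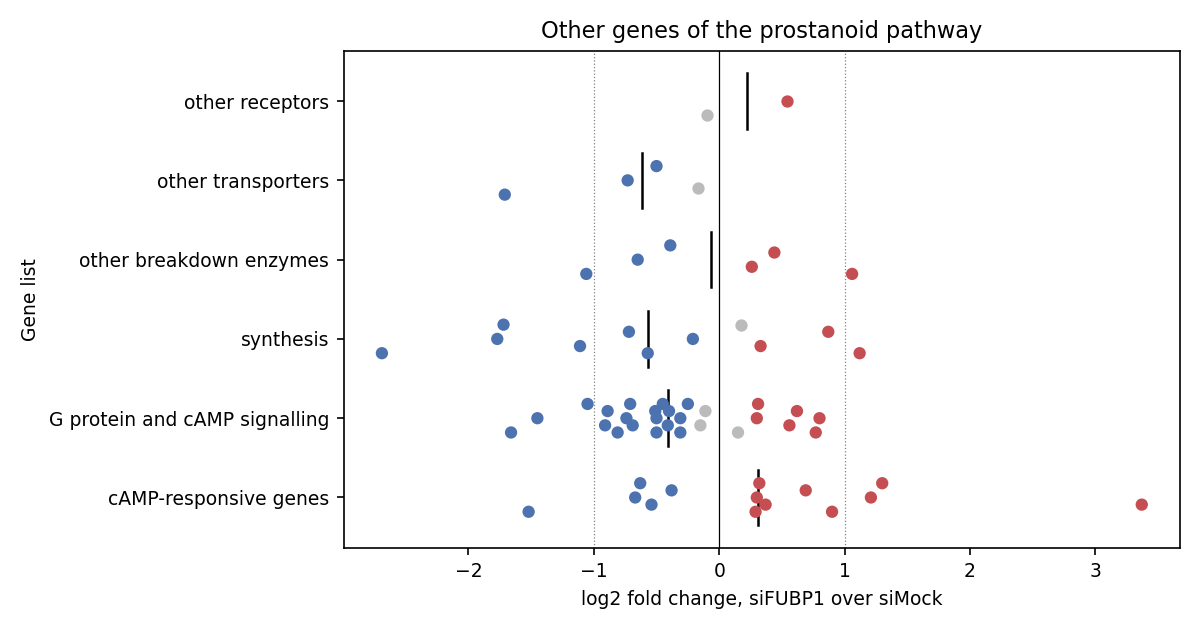
Log2 fold change of siFUBP1 over siMock for the tested genes of 6 lists, 1 point a gene, red for called higher, blue for called lower and grey for not called at an adjusted p below 0.05. Vertical offsets within a list carry no meaning, black bars are list medians and dotted lines stand at -1 and 1. The median of the signalling list lies at -0.41 with 18 blue points, and that of the cyclic AMP responsive genes at 0.31 with AREG farthest right.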

How the data were processed

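Polyadenylated RNA of 6 MG63 samples, grouped by title, was sequenced by the authors. The submitters' processing notes name HISAT2 2.0.5, StringTie 1.3.3b, featureCounts 1.5.0-p3 and DESeq2 1.16.1, and the use of the strand is not given in the sources used here. The deposited counts are whole reads per gene without normalization. The authors scaled the deposited FPKM by gene length and by a library size of each sample. The deposited signal columns (group means), log2 fold changes and p-values of the authors' own comparison were not used. All 58735 gene coordinates equal those of GENCODE 29 (GRCh38).

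The test was edgeR 4.0.16 under R 4.3.3 (TMM scaling, filterByExpr, robust quasi-likelihood F test, Benjamini-Hochberg over 16116 genes), with calls at an adjusted p under 0.05. CPM are counts over total counts times the TMM factor (0.959 to 1.05). Intervals of fold changes come from the t distribution of that fit. DESeq2 1.42.0, limma 3.58.1 on log2(FPKM + 1) and log2(FPKM + 0.1), other filters and scalings, a replicate block, single samples left out and removal of a smooth trend of GC content and length (span 0.3) were alternatives. The fits on all 6 samples were also run on simulated counts with a common dispersion. Only well-counted genes were changed there, so a change in a gene as low as PTGER1 was not covered. Pairs of samples in a group differed by more than sampling noise (chi-square per gene of at least 5.87). Named are the 10 members, FUBP1, PTGES, PTGS1, PTGS2 and list genes called with an absolute log2 fold change above 1. Other list genes were named after their values were seen, or where a count was 5 or fewer. Members and lists were chosen with earlier results of these data known. Intervals and limits from counts cover counting error only. An item that bears on PTGER1 is not reported here.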

Additional observations from a re-analysis of the deposited data

How the results depend on the processing

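The count of members called higher was 1 of 3 tested, PTGER4, where 30.1% of all genes tested were called higher. It was 2, with PTGER1 added, by DESeq2 and without a filter on low counts, where 20.1% and 15.9% of genes were called higher. With each sample left out it ran from 1 to 2. In the fits with a sample left out, PTGER1 passed the filter only through its siFUBP1 reads, so its call there is no further evidence. The fit without a filter keeps any gene with a read, and it and DESeq2 use the same few PTGER1 reads. The count was 0 when a 2-fold change was also required. The count of members called lower was 0 of 3 tested. It was 1 once the trend of GC content and length was removed, which called PTGR1 at a log2 fold change of -0.26. With each sample left out it stayed at 0. Of the 64 pathway genes tested, 36 (56.2%) were called lower and 22 (34.4%) higher, where 30.1% of all genes tested were called each way. With the 2-fold requirement 10 were lower and 5 higher, where 9.13% and 8.16% of all genes tested passed. Once the trend of GC content and length was removed, 35 were called lower and 22 higher. SLCO2A1 changed sign with the GC and length correction (0.055) and without siFUBP1 replicate 3 (0.050). With each sample left out it ran from -0.23 to 0.050, and it was not called in any of 14 alternatives. PTGER4 was called in all 14, with values from 0.37 to 0.95 and adjusted p from 0.00123 to 0.0172 by edgeR, DESeq2 or limma. FUBP1 ran from -2.58 to -2.31.

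Deviations of same-numbered samples correlated at 0.0282, 0.0478 and 0.238 over genes. Those of differently numbered samples correlated at -0.19 to 0.146. These values do not settle whether the replicate numbers pair the samples. With the replicate block, PTGER4 was at 0.84 (edgeR adjusted p = 0.00235) and PTGR1 at -0.0708, and the counts of members called were 1 higher and 0 lower. Depth limits the 7 members outside the fit, whose totals ran from 0 to 51 reads.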
